A study of Mus musculus with 15 samples.

Results

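The lysosome and autophagy genes described here are 35 genes listed by symbol, out of 23337 gene symbols in the files. All 35 were found, and all 35 were among the 15181 genes that passed the filter on low counts. The list holds 11 acid hydrolases (Ctsa, Ctsb, Ctsc, Ctsd, Ctsl, Ctss, Ctsz, Hexa, Gaa, Gusb and Glb1), 6 other lysosomal proteins (Lamp1, Lamp2, Mcoln1, Npc1, Npc2 and Psap), the transcription factors Tfeb and Tfe3, and 16 autophagy genes (Sqstm1, Optn, Map1lc3a, Map1lc3b, Gabarap, Gabarapl1, Gabarapl2, Ulk1, Becn1, Uvrag, Wipi1, Wipi2, Atg5, Atg7, Atg12 and Atg16l1). RNA had been sequenced from untreated progenitor cells of mouse bone marrow, sorted as common myeloid progenitors (CMP) or granulocyte-monocyte progenitors (GMP). Both gates were negative for lineage antigens and Sca1 and positive for CD117 and CD34. Staining for CD16/32 was low in the CMP gate and high in the GMP gate. The groups were Trappc1 knockout (KO) CMP with 4 libraries, wild-type (WT) CMP with 4, KO GMP with 3 (numbered 1, 3 and 4) and WT GMP with 4. Trappc1 is part of the shared core of the TRAPP complexes, which tether transport vesicles at the Golgi, and one of these complexes also acts in autophagosome formation. The labels name neither the strain, age and sex of the mice, nor how or in which cells the gene was deleted, nor whether libraries stand for separate animals. A p-value here thus sets a difference against a spread between libraries that may be technical only.

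Lysosomes are the acidic compartment in which proteins, lipids, glycans and whole organelles are broken down. Hydrolases reach them from the ER and Golgi, the membrane proteins LAMP1 and LAMP2 line them, and NPC2 with NPC1 exports the cholesterol that is released inside. In macroautophagy the kinase ULK1 starts a membrane, Beclin 1 and UVRAG are part of lipid kinase complexes, WIPI proteins read the lipid they make, and ATG7 drives the conjugation of ATG12 to ATG5 and of LC3 and GABARAP proteins to the membrane. SQSTM1 and OPTN carry cargo to it. TFEB and TFE3 activate many lysosomal and autophagy genes through E-box sequences in their promoters, known as CLEAR elements. In granulocyte and monocyte precursors the same period of maturation sees primary granules formed, which are related to lysosomes, and cathepsin C activates the serine proteases stored in them.

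The E-box core of the CLEAR element, CACGTG, was searched in RefSeq promoters (GRCm38.p6), each reaching from 250 bases before to 50 bases after a transcript's start. The sequence reads the same on both strands. Of the 35 members, 29 had a promoter in the table, and 9 of these 29 (31%) held CACGTG, against 2187 of 27025 genes (8.09%) in the table as a whole. By class this was 5 of 10 hydrolases, 2 of 5 other lysosomal members, 0 of 2 for Tfeb and Tfe3, and 2 of 12 autophagy genes. The longer TCACGTG, searched on both strands and always overlapping CACGTG, was in 7 of 29 members (24.1%) and in 4.29% of all genes. The full 10-base element, CACGTG with GT directly before it and AC directly after it, was in 0 of 29 members and in 0.37% of all genes. Shown are the 4 members with more than 1 E-box, and Atg7 as the autophagy gene whose match had a flanking base. Each stretch runs over the E-boxes with up to 12 bases on either side, within the window. They lie at chr8:13159088-13159163 (plus strand) for Lamp1, chr8:3500436-3500491 (plus) for Mcoln1, chr2:164833749-164833795 (plus) for Ctsa, chr7:142387908-142388077 (minus) for Ctsd and chr6:114670952-114670981 (plus) for Atg7. Capitals mark each CACGTG together with a directly adjoining T before it or A after it.
Lamp1: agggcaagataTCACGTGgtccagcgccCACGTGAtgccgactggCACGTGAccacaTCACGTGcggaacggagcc
Mcoln1: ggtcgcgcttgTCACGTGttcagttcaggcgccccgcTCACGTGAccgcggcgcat
Ctsa: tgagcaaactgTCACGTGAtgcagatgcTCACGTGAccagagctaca
Ctsd: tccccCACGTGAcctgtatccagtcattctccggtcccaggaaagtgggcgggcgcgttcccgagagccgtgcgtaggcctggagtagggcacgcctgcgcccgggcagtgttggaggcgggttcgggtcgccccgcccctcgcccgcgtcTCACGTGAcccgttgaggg
Atg7: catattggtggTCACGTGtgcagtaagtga
The Lamp1 window held 4 E-boxes, and those of Mcoln1, Ctsa and Ctsd held 2 each. The other members with a match were Gaa, Glb1, Ctsl and Atg5. These matches describe letters in a window, and binding was not measured.

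Library totals were 61280000 to 120300000 units, or about 15320000 to 30070000 fragments if 1 fragment is 4 units, which is an assumption. Trappc1 averaged 8.63 ± 4.65 CPM (counts scaled to a common library size) in KO CMP and 22.1 ± 4.13 CPM in WT CMP (SD, n = 4 each; two-sided exact permutation test, p = 0.0286, the least possible with 70 splits). edgeR did not call it there (-1.36 ± 0.41, adjusted p = 0.243), while DESeq2 did (adjusted p = 0.0254). It averaged 18.5 ± 10.7 CPM in KO GMP (n = 3) and 35.7 ± 4.54 CPM in WT GMP (n = 4) (exact permutation p = 0.0571, the least possible with 35 splits; edgeR -0.95 ± 0.45, adjusted p = 0.77). By library, Trappc1 was at 5.56, 3.83, 11.7 and 13.4 CPM in KO CMP 1 to 4, 18.4, 26.2, 18.8 and 25.2 CPM in WT CMP, 6.09, 24.1 and 25.2 CPM in KO GMP 1, 3 and 4 and 41.3, 37.0, 30.9 and 33.3 CPM in WT GMP. KO GMP 3 and 4 were below all WT GMP libraries but close to them. KO CMP libraries 1 and 2 and KO GMP library 1 stood apart from the rest. Xist, the RNA of the silenced X chromosome in female cells, was at 109 and 204 CPM in those CMP libraries and at 123 CPM in that GMP library, against at most 2.17 CPM in each of the other libraries. Of the members, Tfe3 and Lamp2 lie on the X chromosome. Whether this bears on their values in the libraries with Xist was not tested. Fcgr3, which encodes CD16, was at 12.9, 18.8, 31.1 and 28.1 CPM in KO CMP, at 99.5, 115, 36.6 and 39.3 in WT CMP, at 125, 311 and 295 in KO GMP (libraries 1, 3 and 4) and at 271, 239, 305 and 315 in WT GMP. Every KO CMP library was thus below all WT CMP libraries in this gate gene, with KO libraries 1 and 2 the lowest. WT CMP libraries 1 and 2 were well above all other CMP libraries. KO GMP library 1 was nearer to WT CMP libraries 1 and 2 than to any other GMP library. Kit (CD117) was between 258 and 419 CPM and Cd34 between 206 and 747 CPM over the 15 libraries, and Ly6a (Sca1), which the gates exclude, was between 1.56 and 45.2 CPM. The WT libraries also part by number, 1 and 2 from 3 and 4, and the labels do not link the numbers to a batch. For this reason KO is compared with WT first with every library and then by number set.

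Among the members, lysosomal proteins had the highest levels per length. Values here are mean CPM per kilobase of merged exons. The exons of all annotated transcripts of a gene were merged, so the ranks depend on the annotation as well as on the RNA. Psap, the precursor of the saposins that help hydrolases degrade sphingolipids, ranked highest in all 4 groups, at 266 in KO CMP, 389 in WT CMP, 266 in KO GMP and 406 in WT GMP. In WT CMP the carboxypeptidase cathepsin Z followed at 166, the aspartic protease cathepsin D at 140.0, Lamp1 at 109.9 and the hexosaminidase subunit Hexa at 104. Gabarap at 72.3 and Gabarapl1 at 62.9 led the autophagy genes. The same 5 lysosomal genes held the highest 5 places in each of the 4 groups, with Ctsd, Ctsz and Lamp1 changing places among themselves. At the low end of WT CMP were Tfe3 at 3.14, Wipi1 at 2.82 and Optn at 2.11, and Tfeb was at 3.77.

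**Figure D1:**
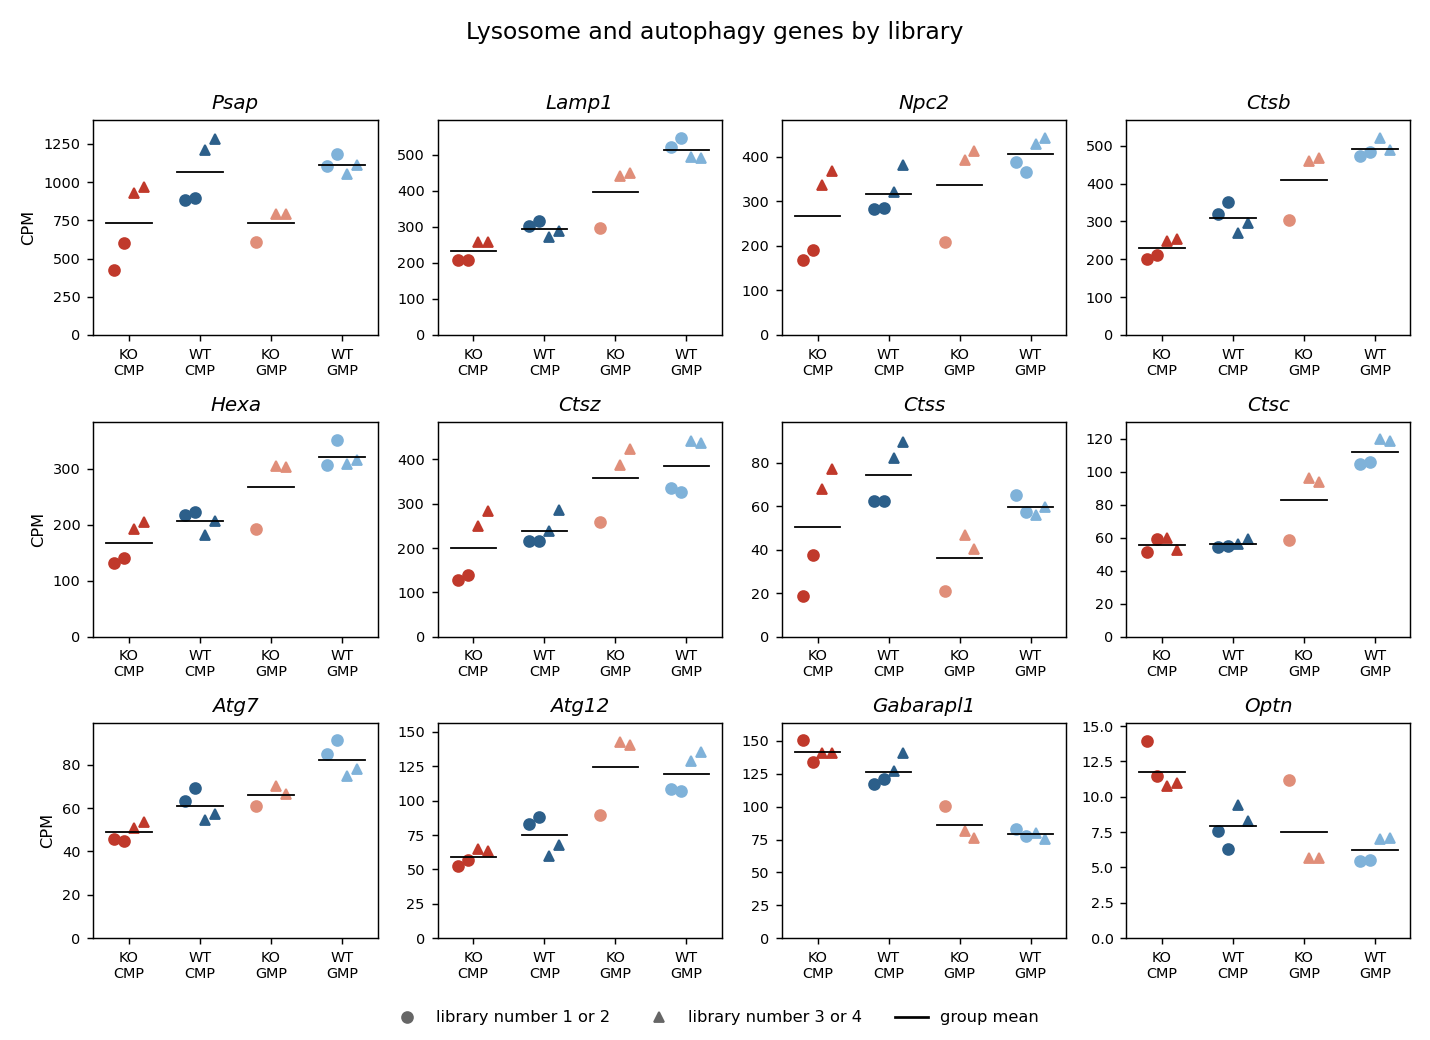
CPM of 12 members (y axis, from 0) in each library of KO CMP, WT CMP, KO GMP and WT GMP (x axis). Circles are libraries numbered 1 or 2, triangles those numbered 3 or 4, and lines are group means. For Psap, the KO GMP libraries sit at 610.3, 788 and 792 CPM, all below the WT GMP libraries.

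The step between the stages asks which of these genes differ between GMP and CMP. In WT cells most hydrolases and the LAMP proteins were higher in GMP, while the autophagy genes split, with Gabarap, Wipi1, Atg5, Atg7 and Atg12 higher and Gabarapl1, Ulk1 and Wipi2 lower. Of 35 members, 15 were called higher and 3 lower by edgeR's quasi-likelihood test (Benjamini-Hochberg adjusted p under 0.05 over all tested genes). Of all tested genes, 11.3% were called higher and 14.2% lower. Hydrolases accounted for 8 of 11 (none lower, median log2 change 0.41), other lysosomal members for 2 of 6 (median 0.21), and autophagy genes for 5 higher and 3 lower of 16 (median -0.10). The median over all tested genes was -0.02. Tfeb (-0.15 ± 0.17, adjusted p = 0.55) and Tfe3 (-0.04 ± 0.10, adjusted p = 0.782) passed in neither direction. In bulk RNA, fewer cells of a type and less RNA per cell cannot be told apart.

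Cathepsin C had the largest change among the hydrolases. Its level was 105, 106, 119.5 and 118 CPM in WT GMP, against 54.0, 55.1, 56.3 and 59.2 CPM in WT CMP. Every GMP library was above every CMP library, and the difference was 2-fold (SE 0.13 on the log2 scale; adjusted p = 0.000211). Cathepsin B, a cysteine protease, was at 472, 482, 519.6 and 488 CPM in WT GMP and at 320.4, 352, 269 and 295 CPM in WT CMP, again without overlap (0.67 ± 0.13, adjusted p = 0.0028). The other hydrolases called higher were Hexa (0.63 ± 0.16, adjusted p = 0.0109), Ctsz (0.69 ± 0.24, adjusted p = 0.0483), the glucuronidase Gusb (0.47 ± 0.06, adjusted p = 0.000232), the serine carboxypeptidase Ctsa (0.41 ± 0.12, adjusted p = 0.0264), Ctsd (0.30 ± 0.10, adjusted p = 0.0365) and the galactosidase Glb1 (0.19 ± 0.06, adjusted p = 0.0308). Cathepsin L (0.18 ± 0.12, adjusted p = 0.309), the glucosidase Gaa (0.13 ± 0.10, adjusted p = 0.384) and cathepsin S (-0.32 ± 0.34, adjusted p = 0.539) did not pass. Several of these calls rest on few libraries or settings: Ctsd, Ctsz and Glb1 were not called with no filter on low counts, nor Ctsd and Glb1 in a fit of the WT libraries alone. Ctsz lost its call without any 1 of the 8 WT libraries (log2 change 0.61 to 0.77, adjusted p = 0.0545 to 0.125), and Glb1 without any but WT CMP 2 (log2 change 0.17 to 0.19, adjusted p = 0.0635 to 0.0987). Ctsa lost it without WT CMP 1, WT CMP 2, WT GMP 3 or WT GMP 4 (log2 change 0.36 to 0.38, adjusted p = 0.0613 to 0.083), and Ctsd without WT CMP 1, 2 or 3 or WT GMP 3 or 4 (log2 change 0.21 to 0.30, adjusted p = 0.0624 to 0.145).

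Lamp1 was at 522, 545, 493 and 491 CPM in WT GMP, against 303, 315, 272 and 287 CPM in WT CMP. The groups did not overlap, and the log2 change was 0.80 ± 0.12 (1.74-fold; adjusted p = 0.00061). Lamp2, the other abundant glycoprotein of the lysosomal membrane, was at 314, 293, 312 and 299.8 CPM in WT GMP and 219.5, 246, 161 and 158 CPM in WT CMP (0.64 ± 0.14, adjusted p = 0.00557). The CMP values of Lamp2 fell into numbers 1 and 2 above numbers 3 and 4. Libraries 1 and 2 gave a step of 0.38 ± 0.08, adjusted p = 0.00518, and libraries 3 and 4 one of 0.94 ± 0.08, adjusted p = 2.31e-06. Psap did not pass over all libraries (0.06 ± 0.21, adjusted p = 0.868). Within number sets its estimates had opposite signs: libraries 1 and 2 gave 0.36 ± 0.12, adjusted p = 0.0493, and libraries 3 and 4 gave -0.20 ± 0.12, adjusted p = 0.223. The cholesterol exporter Npc1 (0.03 ± 0.14, adjusted p = 0.897), its partner Npc2 (0.36 ± 0.25, adjusted p = 0.321) and the calcium channel Mcoln1 (0.03 ± 0.11, adjusted p = 0.875) did not pass either.

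Among the autophagy genes, Atg12, the ubiquitin-like protein that is joined to ATG5, had the largest rise. It was at 108, 107, 129 and 135 CPM in WT GMP, against 83.3, 88.2, 59.9 and 67.8 CPM in WT CMP (0.68 ± 0.16, adjusted p = 0.00655). No library overlapped, but the CMP libraries numbered 1 and 2 were the highest of their group and the GMP libraries with those numbers the lowest of theirs. Among libraries 1 and 2 the step was 0.33 ± 0.08, adjusted p = 0.00842, and among libraries 3 and 4 it was 1.05 ± 0.08, adjusted p = 4.91e-07. Its conjugation partner Atg5 (0.50 ± 0.12, adjusted p = 0.00839), the activating enzyme Atg7 (0.43 ± 0.10, adjusted p = 0.00527) and the ubiquitin-like Gabarap (0.46 ± 0.11, adjusted p = 0.0095) also rose. The lipid reader Wipi1 rose (0.52 ± 0.16, adjusted p = 0.028), a call that was lost without WT CMP 3, WT CMP 4, WT GMP 3 or WT GMP 4 (log2 change 0.41 to 0.49, adjusted p = 0.0678 to 0.0918). Libraries 1 and 2 gave 0.17 ± 0.13, adjusted p = 0.366 for Wipi1, and libraries 3 and 4 gave 0.91 ± 0.13, adjusted p = 0.000117.

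Gabarapl1, a close relative of Gabarap, went the other way. It was at 82.9, 77.8, 79.8 and 75.5 CPM in WT GMP, against 117, 121, 127 and 141 CPM in WT CMP. All GMP values were below all CMP values, with a log2 change of -0.68 ± 0.09 (adjusted p = 0.00022). The initiating kinase Ulk1 was at 40.3, 46.6, 45.6 and 41.3 CPM in WT GMP and at 65.3, 58.9, 76.0 and 65.9 CPM in WT CMP, also without overlap (-0.61 ± 0.13, adjusted p = 0.00441). Wipi2, a second lipid reader, fell by a small amount (-0.20 ± 0.05, adjusted p = 0.0167). The remaining 8 autophagy genes did not pass: Sqstm1, Optn, Map1lc3a, Map1lc3b, Gabarapl2, Becn1, Uvrag and Atg16l1 had log2 changes between -0.35 (Map1lc3a) and 0.19 (Becn1). Within number sets the count of members was 16 higher and 2 lower for numbers 1 and 2 (11% of all genes higher and 14% lower) and 16 higher and 5 lower for numbers 3 and 4 (19.2% of all genes higher and 19.3% lower).

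Wider lists gave the surroundings of the step in WT, where 11.3% of all genes were higher and 14.2% lower. Of 18 subunits of the vacuolar proton pump, which acidifies lysosomes, 10 rose and 0 fell, with a median log2 change of 0.53. They included Atp6v1b2 (0.82 ± 0.12, adjusted p = 0.000395), Atp6v1c1 (0.70 ± 0.13), Atp6ap2 (0.97 ± 0.20) and Atp6v1e1 (0.70 ± 0.15). Of 41 other hydrolases, 14 rose and 8 fell, among them Man2b1 (0.43 ± 0.06) and Acp5 (1.37 ± 0.22), and Ctso (-0.64 ± 0.09) and the lymphocyte protease Ctsw (-3.31 ± 0.49). Of 23 other membrane and sorting proteins, 6 rose and 0 fell, including the tetraspanin Cd63 (1.32 ± 0.25), the chloride transporter subunit Ostm1 (0.62 ± 0.11), the mannose 6-phosphate receptor M6pr (0.68 ± 0.15) and the cystine transporter Ctns (0.69 ± 0.16). Of 20 genes of TFEB control, 5 rose and 2 fell, and the relatives of Tfeb named Tfec (1.29 ± 0.27, adjusted p = 0.00387) and Mitf (0.53 ± 0.17, adjusted p = 0.0333) were among the higher. Of 37 other autophagy genes, 8 rose and 1 fell, and of 16 other receptors, 1 rose and 2 fell. Those named were Atg9a (0.55 ± 0.11), Atg3 (0.44 ± 0.10) and Tecpr1 (-0.95 ± 0.27), and the receptors Tollip (0.28 ± 0.07), Calcoco1 (-0.77 ± 0.14) and Fam134b (-0.50 ± 0.10). Markers moved with the step. The summed level of 4 primary granule proteins (Elane, Mpo, Prtn3 and Ctsg) was 38889, 39998, 41662 and 42041 CPM in WT GMP and 21465, 23847, 11301 and 12186 CPM in WT CMP, and the summed monocyte markers (7 genes) were at 4750.5, 4434, 4135 and 4108 CPM in WT GMP and 1970.3, 2197, 1581 and 1600.3 CPM in WT CMP. Mast cell and basophil markers (4 genes) were at 1205, 1176, 1119 and 1099 CPM in WT GMP and 162, 191, 118 and 137 CPM in WT CMP. Stem cell markers (7 genes) were at 54.7, 56.3, 54.0 and 55.3 CPM in WT GMP and 310.2, 329.7, 378 and 363 CPM in WT CMP, and megakaryocyte markers (5 genes) at 125, 113, 98.6 and 104 CPM in WT GMP and 358, 354, 374 and 379.6 CPM in WT CMP. Thus the sums of granule, monocyte and mast cell markers were higher in GMP and those of stem cell and megakaryocyte markers lower, without overlap. Of the single monocyte markers, Csf1r, Itgam, Ms4a6c and Ccr2 overlapped between WT GMP and WT CMP, while Ly6c2, Cd14 and F13a1 did not. Csf1r was at 212, 233, 195 and 175 CPM in WT GMP and 139, 155, 182 and 177 CPM in WT CMP. None of these markers was at 0 in a library. The part of these cells in the step was not tested, in KO cells either, whose sums are given with the KO effect.

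**Figure D2:**
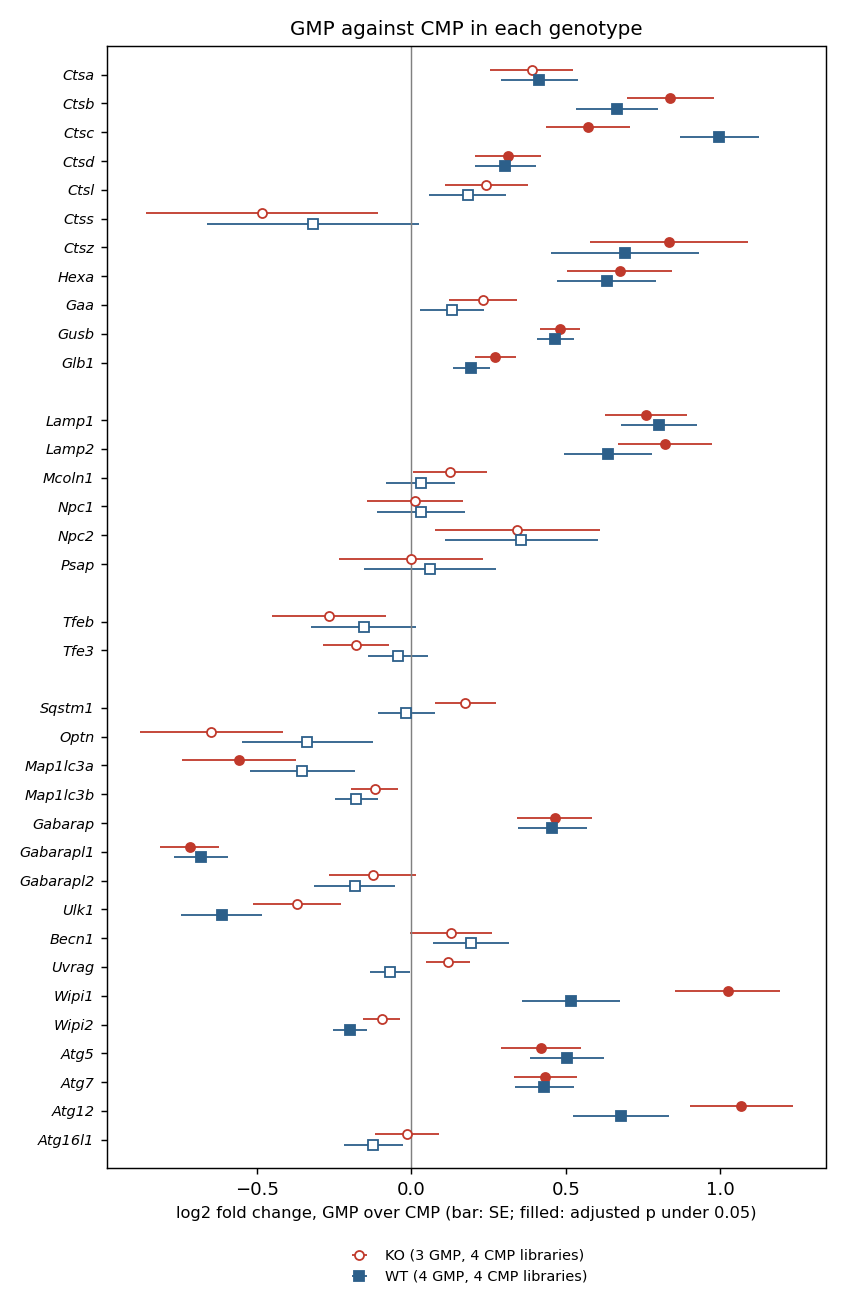
Log2 fold change of each member, GMP over CMP (x axis), in KO cells (circles, 3 GMP and 4 CMP libraries) and WT cells (squares, 4 and 4), with SE as bars. Filled symbols have an adjusted p under 0.05. Gabarapl1 lies at -0.72 in KO and -0.68 in WT, and Wipi1 at 1.02 in KO and 0.52 in WT.

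The same step in KO cells gave 14 members higher and 2 lower, where 10.7% of all genes were higher and 10.5% lower. Hydrolases made up 7 of the higher (median 0.39), Lamp1 and Lamp2 another 2, and autophagy genes 5. Ctsc was at 58.6, 95.8 and 93.6 CPM in KO GMP libraries 1, 3 and 4, against 51.0, 59.1, 59.7 and 52.7 CPM in KO CMP. Library 1 of KO GMP was at the level of CMP, while libraries 3 and 4 were above it, and the change was 0.57 ± 0.13 (adjusted p = 0.00799). Without KO GMP 3 the Ctsc call was lost (log2 change 0.46, adjusted p = 0.0552), and KO GMP 1 against KO CMP 1 and 2 gave 0.09 (adjusted p = 0.622). Lamp1 was at 0.76 ± 0.13 and Lamp2 at 0.82 ± 0.15. Wipi1 (1.02 ± 0.17, adjusted p = 0.0011) and Atg12 (1.07 ± 0.17, adjusted p = 0.000847) were the largest changes. Those that fell were Gabarapl1 (-0.72 ± 0.10, adjusted p = 0.000514) and Map1lc3a (-0.56 ± 0.18, adjusted p = 0.0446). Ulk1 was at -0.37 ± 0.14 (adjusted p = 0.0797), with KO GMP library 1 at 62.6 CPM and libraries 3 and 4 at 42.6 and 38.2 CPM. The count of 16 members called in KO was 8 without KO GMP 3. Within numbers 3 and 4 it was 16 higher and 6 lower (17.9% of all genes higher and 19.1% lower). Calls lost without 1 library included Ctsd (any 1 of the 7, log2 change 0.29 to 0.34, adjusted p = 0.0606 to 0.142), Map1lc3a (any but KO CMP 1, log2 change -0.58 to -0.46, adjusted p = 0.0575 to 0.126), Ctsz (KO CMP 1 or 2 or KO GMP 3 or 4, log2 change 0.67 to 0.77, adjusted p = 0.0778 to 0.15) and Atg5 (KO CMP 1, 2 or 3 or KO GMP 3 or 4, log2 change 0.36 to 0.43, adjusted p = 0.0536 to 0.135). A fit of the KO libraries alone also ended the calls of Ctsc, Ctsz, Gabarap, Glb1, Hexa and Map1lc3a. Hexa and Gabarap lost theirs without KO GMP 3 or 4 (log2 change 0.57 to 0.58, adjusted p = 0.07 to 0.0744 for Hexa, log2 change 0.39 to 0.43, adjusted p = 0.0679 to 0.0852 for Gabarap), and Atg7 without KO GMP 3 (log2 change 0.39, adjusted p = 0.0504). The test of whether the KO effect differs between CMP and GMP, which is the same as a difference between the 2 steps, called 0 of 35 members and 0% of all genes with edgeR. At an unadjusted p under 0.05 it gave 2 members and 451 genes, and DESeq2 called 0 members, with 0 genes positive and 3 negative. Without KO CMP 1 and 2 and KO GMP 1, the KO step had 12 members higher and 5 lower, with 1799 genes higher and 1968 lower in the whole table, and Ctsd and Glb1 were no longer among them.

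KO against WT asks what the loss of Trappc1 goes with at each stage. Over all libraries no member was called. In CMP the count was 0 of 35 with 0% of all genes, in GMP again 0 of 35 with 0%, both by edgeR. At an unadjusted p under 0.05 there were 8 members lower and 1 higher in CMP, among 1761 genes of 15181, and 5 lower and 0 higher in GMP, among 985. DESeq2 called 0 members in either cell type, with 113 genes higher and 214 lower in CMP, and 50 higher and 11 lower in GMP. The other lysosomal members were all on the lower side, 6 of 6 in each cell type, with a median log2 change of -0.29 in CMP and -0.22 in GMP. Hydrolases had a median of -0.02 in CMP and -0.11 in GMP, and autophagy genes one of -0.09 in CMP and 0.04 in GMP. The median of all tested genes was 0.01 in both cell types.

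Psap shows the spread within the groups. It was at 424, 604, 926 and 969 CPM in KO CMP libraries 1 to 4, against 885, 899, 1207 and 1283 CPM in WT CMP. Each KO library was below the WT libraries of its own number set, but KO libraries 3 and 4 were above WT libraries 1 and 2. In GMP it was at 610.3, 788 and 792 CPM in KO libraries 1, 3 and 4, against 1104, 1183, 1055 and 1113 CPM in WT, with no overlap. Its log2 change was -0.55 ± 0.22, adjusted p = 0.335, in CMP, and -0.61 ± 0.23, adjusted p = 0.698, in GMP. Without the 3 libraries that stood apart, its CMP estimate was -0.19 with an adjusted p of 0.495, and its GMP estimate was -0.50 with an adjusted p of 0.786. All WT libraries stayed in that fit, while within numbers 3 and 4 alone its CMP estimate was -0.39. No member was called without those 3 KO libraries in either cell type (0 of 35 in each). Without overlap of the groups were 4 of 35 members in CMP (11.4%, against 6.85% of all genes) and 8 of 35 in GMP (22.9%, against 7.34%). In CMP these were Ctsb, Lamp1 and Atg7, lower in KO, and Optn, higher in KO. In GMP they were Ctsb, Ctsc, Ctss, Hexa, Lamp1, Psap and Atg7, lower in KO, and Glb1, higher in KO. For Glb1 the groups almost met, at 112.062 CPM in KO GMP 3 and 111.998 CPM in WT GMP 3. Atg7 was also close in CMP, at 53.7 CPM in KO CMP 4 and 54.5 CPM in WT CMP 3. Ctsb, Lamp1 and Atg7 were lower without overlap in both cell types.

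Within numbers 1 and 2, KO CMP had lower levels of some hydrolases (Ctsb, Ctss, Ctsz and Hexa), of Lamp1, Lamp2, Npc2 and Psap, and of Atg5, Atg7, Atg12, Wipi1 and Sqstm1. Of 35 members, 13 were called lower (10.2% of all genes) and 2 higher (8.23% of all genes). Hydrolases gave 4 lower of 11, other lysosomal members 4 of 6, and autophagy genes 5 lower and 2 higher of 16. Tfeb (-0.29 ± 0.12, adjusted p = 0.116) and Tfe3 (0.02 ± 0.09, adjusted p = 0.906) did not pass. The median log2 change was -0.57 for the other lysosomal members, -0.05 for hydrolases and -0.06 for autophagy genes, against 0.01 for all genes. In this set the KO libraries are those with Xist, so genotype and whatever sets these libraries apart cannot be told apart. Trappc1 itself was at 5.56 and 3.83 CPM in KO CMP 1 and 2, against 18.4 and 26.2 CPM in WT CMP 1 and 2.

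Cathepsin S, a cysteine protease of antigen-presenting cells, had the largest change of the members. Its level was 18.6 and 37.3 CPM in KO CMP 1 and 2, against 62.5 and 62.4 CPM in WT CMP 1 and 2, a log2 change of -1.16 ± 0.23 (2.23-fold lower; adjusted p = 0.0033). Psap was at 424 and 604 CPM in KO, against 885 and 899 CPM in WT (1.73-fold lower; -0.79 ± 0.12, adjusted p = 0.000625). In both genes the KO libraries were below all 4 WT CMP libraries and also apart from each other, with number 1 the lower. Ctsb was at 200.2 and 212 CPM in KO and 320.4 and 352 CPM in WT (-0.71 ± 0.07, adjusted p = 3.37e-05). Hexa was at 132 and 141 CPM in KO and 217 and 223 CPM in WT (-0.69 ± 0.09, adjusted p = 0.000127), and Ctsz at 127 and 140.2 CPM in KO and 216 and 215 CPM in WT (-0.69 ± 0.10, adjusted p = 0.000324). The KO pair was close together in these 3 genes. Npc2, the cholesterol carrier, was at 168 and 191 CPM in KO and 282 and 286 CPM in WT (-0.66 ± 0.09, adjusted p = 0.000308). Lamp1 was at 208 and 209 CPM in KO and 303 and 315 CPM in WT (-0.57 ± 0.06, adjusted p = 4.28e-05), and Lamp2 changed by -0.58 ± 0.08 (adjusted p = 0.000374). Hydrolases with values near 0 or above were Ctsc (0.01 ± 0.08, adjusted p = 0.95), Gusb (-0.04 ± 0.07, adjusted p = 0.76), Glb1 (0.03 ± 0.07, adjusted p = 0.823), Gaa (-0.05 ± 0.08, adjusted p = 0.759), Ctsd (0.17 ± 0.08, adjusted p = 0.174) and Ctsl (0.20 ± 0.09, adjusted p = 0.148). Ctsa was at -0.23 ± 0.08 (adjusted p = 0.0877), and Mcoln1 and Npc1 did not pass.

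Of the autophagy genes, Atg12 fell to 52.8 and 56.6 CPM in KO CMP 1 and 2, against 83.3 and 88.2 CPM in WT CMP 1 and 2 (-0.65 ± 0.08, adjusted p = 8.13e-05). WT CMP libraries 3 and 4 were at 59.9 and 67.8 CPM, so the WT libraries of this set are themselves the higher ones. Atg7 was at 45.9 and 44.7 CPM in KO and 63.3 and 69.3 CPM in WT (-0.55 ± 0.08, adjusted p = 0.000289). Wipi1 (-0.60 ± 0.13, adjusted p = 0.00631), Atg5 (-0.33 ± 0.10, adjusted p = 0.0468) and the cargo receptor Sqstm1 (-0.24 ± 0.07, adjusted p = 0.0421) were lower as well. The cargo receptor Optn was higher, at 13.9 and 11.5 CPM in KO against 7.59 and 6.32 CPM in WT (0.87 ± 0.14, adjusted p = 0.00101), and so was Gabarapl1 (0.25 ± 0.08, adjusted p = 0.0472). The Wipi1 call was lost without WT CMP 1 (log2 change -0.44, adjusted p = 0.0677), the Atg5 call without KO CMP 1, KO CMP 2 or WT CMP 2 (log2 change -0.33 to -0.18, adjusted p = 0.113 to 0.347), and those of Sqstm1 and Gabarapl1 without KO CMP 1, WT CMP 1 or WT CMP 2 (log2 change -0.29 to -0.16, adjusted p = 0.0534 to 0.232 for Sqstm1, log2 change 0.17 to 0.28, adjusted p = 0.114 to 0.258 for Gabarapl1). Of the 13 lower members, 10 had both KO libraries below all 4 WT CMP libraries, and Lamp2, Wipi1 and Atg5 did not. Among all 1552 genes called lower, 67.5% did. Of these calls, Atg5 and Sqstm1 were lost with RLE size factors, Gabarapl1 with no filter, and Atg5, Gabarapl1, Sqstm1 and Wipi1 in a fit of the compared libraries alone.

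The WT libraries of the number sets also differed from each other. Between WT CMP 1 and 2 and WT CMP 3 and 4, 13 members were called, with 22.9% of all genes called in either direction. Higher in numbers 1 and 2 were Wipi1 (0.57 ± 0.13), Lamp2 (0.55 ± 0.08), Npc1 (0.47 ± 0.13), Atg12 (0.43 ± 0.08), Atg5 (0.38 ± 0.10), Ctsb (0.25 ± 0.07) and Atg7 (0.25 ± 0.08). Lower in numbers 1 and 2 were Psap (-0.48 ± 0.12), Tfeb (-0.43 ± 0.12), Ctsl (-0.35 ± 0.09), Npc2 (-0.31 ± 0.09), Ctsa (-0.28 ± 0.08) and Tfe3 (-0.27 ± 0.09). In WT GMP 6 members were called, all lower in numbers 1 and 2 (8.61% of all genes in either direction): Ctsz, Gabarapl2, Ctsd, Ctsl, Sqstm1 and Atg12, between -0.41 and -0.30. Markers moved with the KO effect too. Summed primary granule markers were 4483, 5113, 11549 and 12032 CPM in KO CMP 1 to 4 and 21465, 23847, 11301 and 12186 CPM in WT CMP. Summed monocyte markers (7 genes) were 348, 548, 1334 and 1327 CPM in KO CMP and 1970.3, 2197, 1581 and 1600.3 CPM in WT CMP. Stem cell markers (7 genes) were at 631, 618, 370.1 and 367 CPM in KO CMP and 310.2, 329.7, 378 and 363 CPM in WT CMP, and megakaryocyte markers (5 genes) at 760.1, 549.9, 414 and 422 CPM in KO CMP and 358, 354, 374 and 379.6 CPM in WT CMP. Stromal and endothelial markers (7 genes) were at 277, 317, 152 and 152 CPM in KO CMP and 137, 132, 159.6 and 154 CPM in WT CMP. Within this list, Pecam1 was at 134, 113, 146 and 147 CPM in KO CMP and 120, 109, 154 and 150 CPM in WT CMP. Cxcl12 was at 91.0, 127, 3.11 and 2.31 CPM in KO CMP and 12.3, 15.1, 1.19 and 0.779 CPM in WT CMP. Col1a1, Col1a2, Col3a1 and Sparc were also highest in KO CMP 1 and 2, while Cdh5 was at most 0.768 CPM in CMP. No primary granule, monocyte or stem cell marker was at 0 in any CMP library, and at most 2 of 7 stromal markers were. Numbers 1 and 2 of KO CMP were thus low in the sums of granule and monocyte markers and high in those of stem cell, megakaryocyte and stromal ones. The part of these cells in the member values was not tested.

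**Figure D3:**
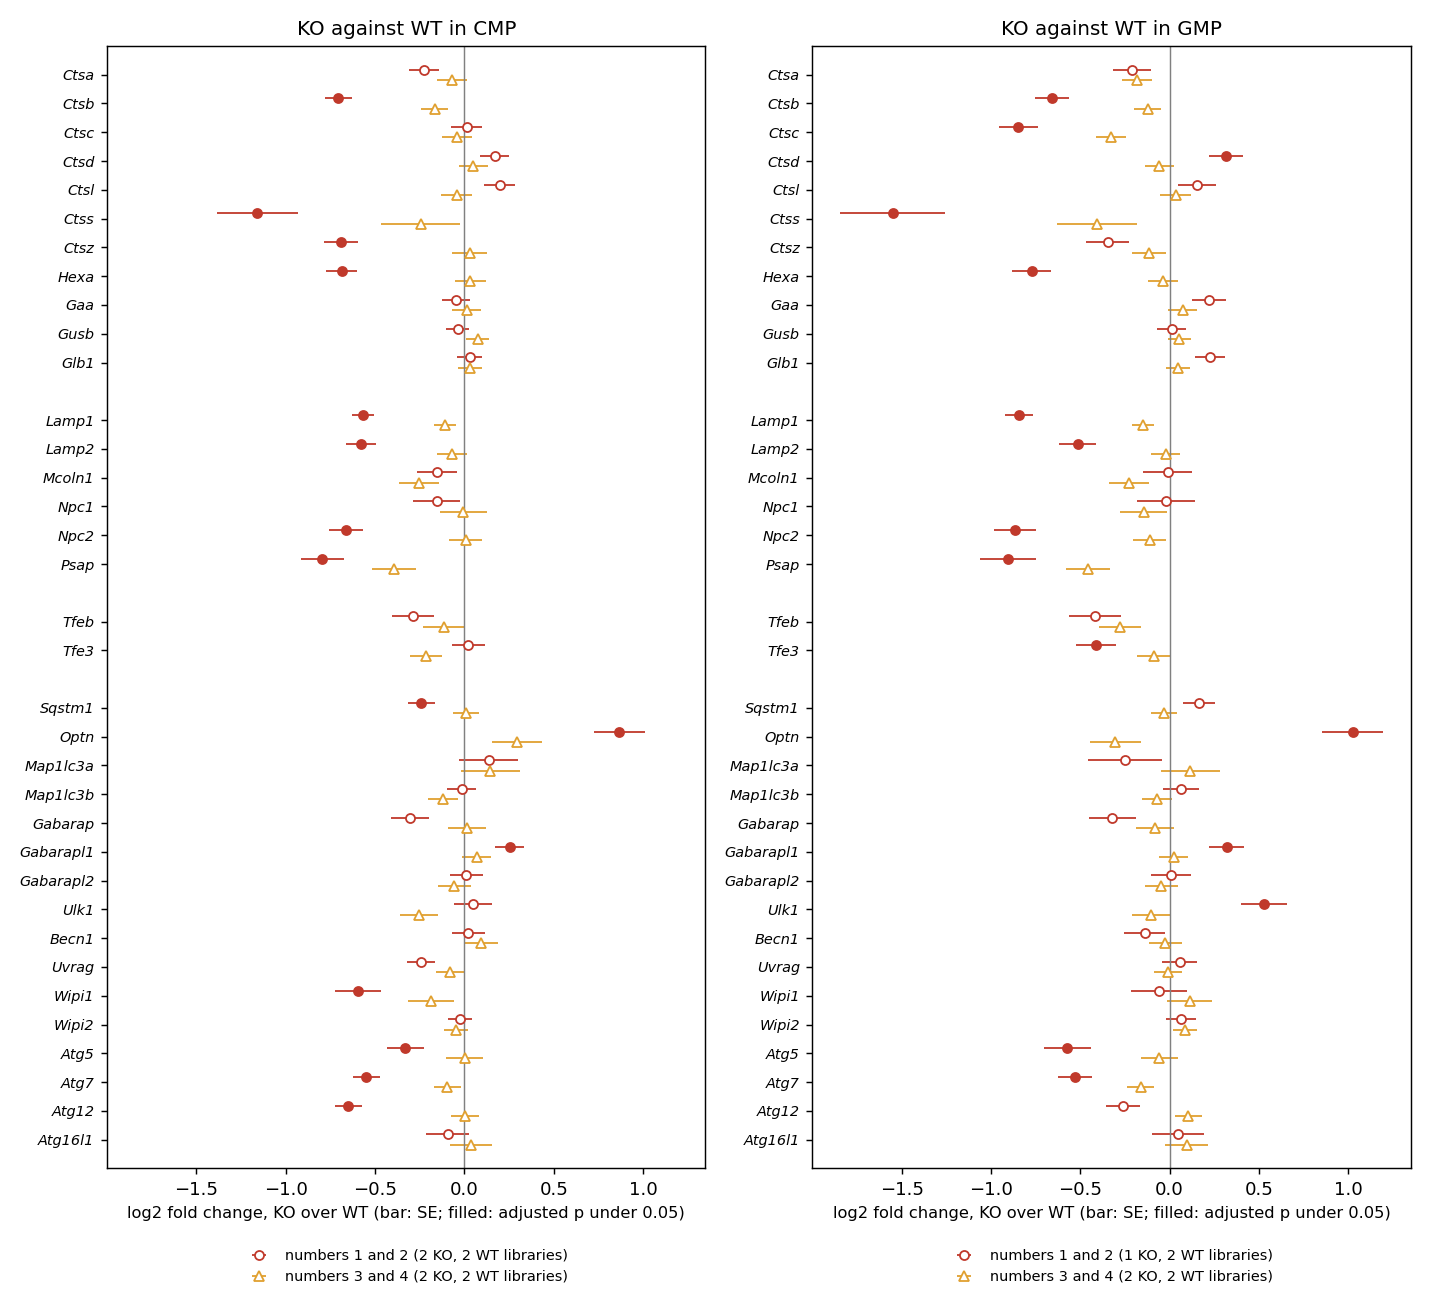
Log2 fold change of each member, KO over WT (x axis), in CMP (left) and GMP (right), with SE as bars. Circles are numbers 1 and 2 and triangles numbers 3 and 4, and filled symbols have an adjusted p under 0.05. In CMP numbers 1 and 2, Ctss (-1.16) and Psap (-0.79) lie farthest to the left and Optn (0.87) farthest to the right, and no triangle is filled.

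In GMP, numbers 1 and 2 hold 1 KO library, whose spread is taken to be that of the other libraries, so the calls describe that library and have no replicate. Set against WT GMP 1 and 2, it had 11 members lower (9% of all genes) and 4 higher (11% of all genes). Ctss was at 20.9 CPM in KO GMP 1, against 65.3 and 57.2 CPM in WT (-1.55 ± 0.30, adjusted p = 0.00296). Psap was at 610.3 CPM in KO, against 1104 and 1183 CPM in WT (-0.91 ± 0.16, adjusted p = 0.00147). Npc2 was at 208 CPM in KO, against 389 and 367 CPM in WT (-0.86 ± 0.12, adjusted p = 0.000279). All 3 were well below both WT libraries of the set. Lamp1 was at 297 CPM in KO, against 522 and 545 CPM in WT (-0.84 ± 0.08, adjusted p = 1.94e-05). Ctsc, whose log2 change in CMP was 0.01, was at 58.6 CPM in KO GMP 1 and at 105 and 106 CPM in WT (-0.85 ± 0.11, adjusted p = 0.000171). In each of these 5 genes the KO library was below all WT GMP libraries, as it was for 97.1% of all genes called lower. Hexa (-0.77 ± 0.11, adjusted p = 0.000353), Ctsb (-0.66 ± 0.09, adjusted p = 0.000393), Atg5 (-0.57 ± 0.13, adjusted p = 0.00888), Atg7 (-0.53 ± 0.09, adjusted p = 0.00192), Lamp2 (-0.51 ± 0.10, adjusted p = 0.00409) and Tfe3 (-0.41 ± 0.11, adjusted p = 0.0235) were the others lower. Optn (1.03 ± 0.17, adjusted p = 0.00119), Ulk1 (0.53 ± 0.13, adjusted p = 0.0121), Gabarapl1 (0.32 ± 0.10, adjusted p = 0.0396) and Ctsd (0.31 ± 0.10, adjusted p = 0.0382) were higher. Tfe3 and Gabarapl1 lost their calls without WT GMP 2 (log2 change -0.34, adjusted p = 0.0994 for Tfe3, log2 change 0.27, adjusted p = 0.148 for Gabarapl1), Ulk1 without WT GMP 1 (log2 change 0.46, adjusted p = 0.0699) and Ctsd without WT GMP 1 or 2 (log2 change 0.33, adjusted p = 0.0833 to 0.0984). With the library number as a block, Gabarapl1 had an adjusted p of 0.0723. Summed primary granule markers were 21324, 43522 and 44121 CPM in KO GMP 1, 3 and 4 and 38889, 39998, 41662 and 42041 CPM in WT GMP. Mast cell and basophil markers were at 1082, 635 and 603 CPM in KO GMP and 1205, 1176, 1119 and 1099 CPM in WT GMP. The genes of this sum went opposite ways in KO GMP 1. Cpa3 was at 369 CPM there (145 to 198 in WT GMP) and Ms4a2 at 40.5 CPM (14.5 to 18.5), both higher. Mcpt8 was at 251 CPM (274 to 323 in WT GMP) and Prss34 at 422 CPM (605 to 701), both lower. Monocyte markers were at 964, 3684 and 3659.6 CPM in KO GMP and 4750.5, 4434, 4135 and 4108 CPM in WT GMP, and stem cell markers at 207, 58.9 and 62.4 CPM in KO GMP and 54.7, 56.3, 54.0 and 55.3 CPM in WT GMP. None of these markers was at 0 in a GMP library. Megakaryocyte markers were at 346, 88.8 and 83.2 CPM in KO GMP and 125, 113, 98.6 and 104 CPM in WT GMP. Late neutrophil markers (7 genes) were at 62.8, 739 and 721 CPM in KO GMP and 302, 280, 631 and 774 CPM in WT GMP. Stromal and endothelial markers were at 230, 111 and 104 CPM in KO GMP and 119, 123, 119 and 118 CPM in WT GMP, with at most 3 of 7 at 0. The part of these cells in the member values was not tested.

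Numbers 3 and 4 gave 0 of 35 members in CMP (0.00659% of all genes) and 0 of 35 in GMP (0.0132% of all genes) by edgeR. At an unadjusted p under 0.05 there were 5 members lower and 0 higher in CMP, where 11.4% of all genes were under it, and 4 lower and 0 higher in GMP, where 5.2% were. DESeq2 called 0 members in both, with 93 genes higher and 77 lower in CMP and 13 higher and 33 lower in GMP. The members under that unadjusted threshold were Psap, Ulk1, Tfe3, Mcoln1 and Ctsb in CMP, and Ctsc, Psap, Tfeb and Lamp1 in GMP. Psap was at 788 and 792 CPM in KO GMP 3 and 4, against 1055 and 1113 CPM in WT GMP 3 and 4. The log2 change of Psap was -0.46 ± 0.12 (adjusted p = 0.443), and a fit of these libraries alone called it (adjusted p = 0.016). In CMP Psap was at 926 and 969 CPM in KO CMP 3 and 4 and at 1207 and 1283 CPM in WT CMP 3 and 4 (-0.39 ± 0.12, adjusted p = 0.331). The KO libraries were below the WT libraries of the set in both cell types. The estimates of the genes called in numbers 1 and 2 were smaller here, with Ctsb at -0.17 ± 0.07, Lamp1 at -0.11 ± 0.06, Npc2 at 0.01 ± 0.09 and Atg12 at 0.00 ± 0.08 in CMP. Trappc1 itself was not called in this set, at -0.80 in CMP (edgeR, adjusted p = 0.263, where DESeq2 gave 0.0157) and at 24.1 and 25.2 CPM in KO GMP against 30.9 and 33.3 CPM in WT GMP (-0.38, adjusted p = 1). The counts of 0 members are thus for libraries labelled KO in which edgeR did not call the targeted transcript lower. Markers differed in the set as well. Monocyte sums were 1334 and 1327 CPM in KO CMP and 1581 and 1600.3 CPM in WT CMP, and 3684 and 3659.6 CPM in KO GMP and 4135 and 4108 CPM in WT GMP. Mast cell and basophil sums were 635 and 603 CPM in KO GMP and 1119 and 1099 CPM in WT GMP. These sums were lower in KO without overlap, which carries little weight with 2 libraries a side. Primary granule sums overlapped in CMP and were higher in KO GMP. Megakaryocyte sums were 414 and 422 CPM in KO CMP and 374 and 379.6 CPM in WT CMP. In GMP they were 88.8 and 83.2 CPM in KO and 98.6 and 104 CPM in WT. Erythroid sums (6 genes) were 79.0 and 87.9 CPM in KO CMP and 51.8 and 66.7 CPM in WT CMP. The part of these cells in the Psap values was not tested.

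The difference of the KO effect between the number sets was tested itself. In CMP 8 of 35 members passed, all more negative in numbers 1 and 2, with 7.64% of all genes called in either direction. They were Hexa (-0.72 ± 0.12, adjusted p = 0.00281), Ctsz (-0.72 ± 0.14, adjusted p = 0.00631), Npc2 (-0.67 ± 0.13, adjusted p = 0.0073), Atg12 (-0.65 ± 0.11, adjusted p = 0.00259), Ctsb (-0.54 ± 0.11, adjusted p = 0.00737), Lamp2 (-0.51 ± 0.12, adjusted p = 0.0188), Lamp1 (-0.46 ± 0.09, adjusted p = 0.00651) and Atg7 (-0.45 ± 0.11, adjusted p = 0.0211). Psap (-0.40 ± 0.17, adjusted p = 0.21) and Ctss (-0.91 ± 0.32, adjusted p = 0.111) did not pass. Atg7 lost its call without KO CMP 4, WT CMP 2 or WT CMP 3 (log2 change -0.44 to -0.39, adjusted p = 0.0705 to 0.0799), and Lamp2 without KO CMP 1, KO CMP 3 or WT CMP 2 (log2 change -0.46 to -0.42, adjusted p = 0.0502 to 0.0754). In GMP 8 of 35 passed, with 10.6% of all genes, and these calls rest on KO GMP 1 alone for numbers 1 and 2. More negative in numbers 1 and 2 were Npc2 (-0.75 ± 0.15, adjusted p = 0.00643), Hexa (-0.73 ± 0.14, adjusted p = 0.00459), Lamp1 (-0.70 ± 0.10, adjusted p = 0.000871), Ctsb (-0.53 ± 0.12, adjusted p = 0.0128), Ctsc (-0.52 ± 0.13, adjusted p = 0.0289) and Lamp2 (-0.49 ± 0.13, adjusted p = 0.0322), and more positive were Optn (1.33 ± 0.22, adjusted p = 0.00252) and Ulk1 (0.63 ± 0.17, adjusted p = 0.0303). The GMP count was 4 without KO GMP 4. Without 1 library Ctsc lost its call for each of the other 6 GMP libraries (log2 change -0.51 to -0.47, adjusted p = 0.0675 to 0.0968), Lamp2 for KO GMP 3, KO GMP 4, WT GMP 1, WT GMP 3 or WT GMP 4 (log2 change -0.50 to -0.41, adjusted p = 0.0874 to 0.129), Ulk1 for KO GMP 4, WT GMP 1 or WT GMP 3 (log2 change 0.56 to 0.59, adjusted p = 0.0937 to 0.102) and Ctsb for KO GMP 4 or WT GMP 4 (log2 change -0.50 to -0.46, adjusted p = 0.0559 to 0.0591).

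In the wider lists most genes were not called in KO CMP of numbers 1 and 2, and those called were mostly lower, where 8.23% of all genes were higher and 10.2% lower. Of 41 other hydrolases, 18 fell and 1 rose, with a median of -0.21. The sialidase Neu1 (-1.48 ± 0.11, adjusted p = 1.2e-06), the sulfatases Arsb (-1.54 ± 0.13, adjusted p = 6.01e-06) and Galns (-0.92 ± 0.10, adjusted p = 3.17e-05) and the carboxypeptidase Scpep1 (-1.27 ± 0.14, adjusted p = 4.28e-05) had the smallest p. Of 18 proton pump subunits, 8 fell and 0 rose (median -0.46), including Atp6ap2 (-0.95 ± 0.07, adjusted p = 1.28e-06), Tcirg1 (-0.86 ± 0.10, adjusted p = 8.24e-05), Atp6v1b2 (-0.63 ± 0.07, adjusted p = 5.97e-05) and Atp6ap1 (-0.44 ± 0.07, adjusted p = 0.000555). Of 23 membrane and sorting proteins, 8 fell and 1 rose, including Ctns (-0.98 ± 0.11), the sorting receptor Sort1 (-0.92 ± 0.11), Cd63 (-0.73 ± 0.11) and the channel Tpcn1 (-0.59 ± 0.08). Of 20 genes of TFEB control, 4 fell and 0 rose, with Tfec (-1.39 ± 0.10, adjusted p = 1.38e-06) and Mitf (-0.66 ± 0.15, adjusted p = 0.00911) at the head, then Lamtor4, listed as 0910001L09Rik (-0.49 ± 0.12), and Mlst8 (-0.23 ± 0.07). Of 37 other autophagy genes, 8 fell and 1 rose, including the tethering subunits Vps18 (-0.37 ± 0.07) and Vps11 (-0.40 ± 0.08). Of 16 other receptors, 4 fell and 0 rose, with the mitophagy receptor Bnip3l (-0.47 ± 0.08) and the ferritin receptor Ncoa4 (-0.50 ± 0.09) at the head. Within numbers 3 and 4 of CMP, 1 gene of the whole table was called, and it was in none of these 6 lists.

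In KO GMP 1 against WT GMP 1 and 2, where 11% of all genes were higher and 9% lower, 15 of the 41 other hydrolases fell and 4 rose. Cathepsin H had the largest change of those named (-2.35 ± 0.30, adjusted p = 0.000162), followed by Scpep1 (-1.25 ± 0.18) and the phospholipase Pla2g15 (-0.86 ± 0.13). Of 18 proton pump subunits, 10 fell and 1 rose, with Atp6v1b2 (-0.75 ± 0.09), Atp6v0b (-0.73 ± 0.12) and Atp6v1e1 (-0.65 ± 0.11) lower and the membrane subunit Atp6v0a1 higher (0.79 ± 0.11). Of 23 membrane and sorting proteins, 6 fell and 1 rose, with M6pr (-0.64 ± 0.09), Ostm1 (-0.61 ± 0.10) and Sort1 (-0.72 ± 0.13) lower and Laptm4b (0.86 ± 0.15) higher. Of 20 genes of TFEB control, 4 fell and 3 rose, with Tfec (-1.13 ± 0.13, adjusted p = 6.71e-05) and 0910001L09Rik (-0.82 ± 0.15) lower and Rragb (1.02 ± 0.22) and Fnip2 (0.73 ± 0.16) higher. Of 16 other receptors, 2 fell and 0 rose, Bnip3l (-0.81 ± 0.10, adjusted p = 0.000127) and Sec62 (-0.50 ± 0.10). Of 37 other autophagy genes, 1 was called, the protease Atg4d (-0.44 ± 0.13, adjusted p = 0.0315). Within numbers 3 and 4 of GMP, 2 genes of the whole table were called, outside the 6 lists.

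The KO effect can be set beside the stage step with no library in common, using WT GMP against WT CMP of numbers 3 and 4 and KO CMP against WT CMP of numbers 1 and 2. Of the 16 members higher in that step, 10 (62.5%) were lower in KO CMP, against 1081 of 2917 genes (37.1%) over the whole table. By class these were 6 of 10 hydrolases and other lysosomal members (60%) and 4 of 6 autophagy genes (66.7%). Across the 16 autophagy genes the log2 changes had a Pearson r of -0.768 and a Spearman rho of -0.885. Across the 17 hydrolases and other lysosomal members they were 0.132 and 0.0147, and across all 15181 genes -0.359 and -0.431. With KO GMP 1 against WT GMP 1 and 2 as the KO effect, they were -0.582 and -0.729 across the autophagy genes. Across the 17 lysosomal members they were then 0.0317 and -0.125, and across all genes -0.365 and -0.465. Genes within a fit share their libraries and are not independent, so these are descriptions. Gabarapl1, which was lower in the step, was higher in KO CMP, and Atg12, Wipi1, Atg5 and Atg7 were higher in the step and lower in KO CMP. Ctss and Psap lay elsewhere, with -0.58 and -0.20 in the step and the largest falls in KO CMP. Ctsc, with 1.04 in the step, was at 0.01 in KO CMP.

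**Figure D4:**
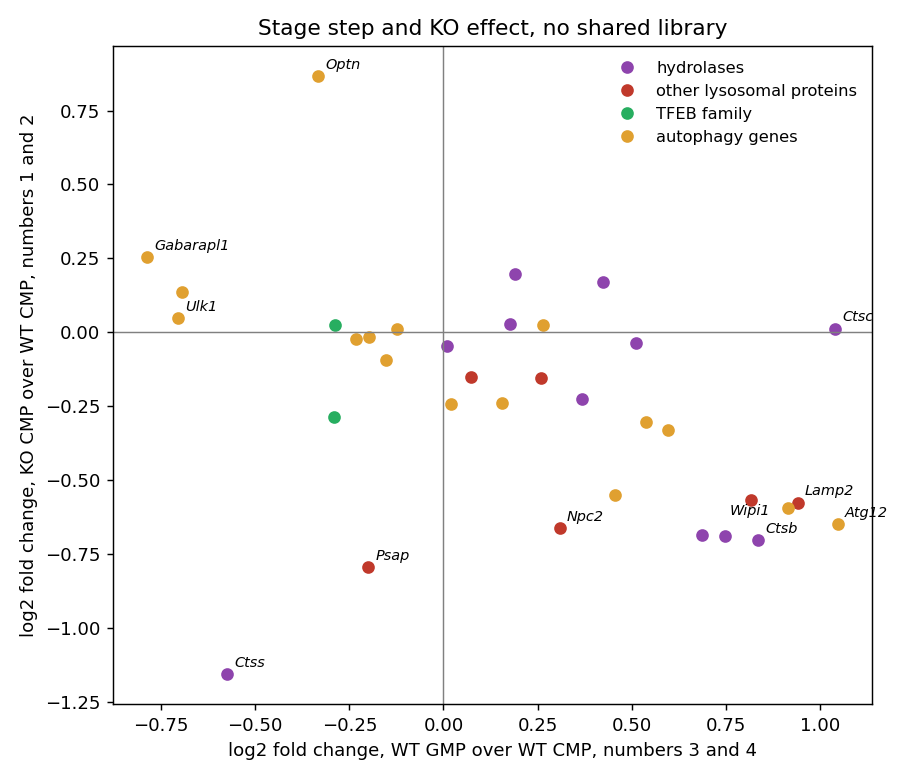
Log2 fold change of the 35 members in WT GMP over WT CMP, numbers 3 and 4 (x axis), against KO CMP over WT CMP, numbers 1 and 2 (y axis). Each point is a gene, coloured by class, and no library is used on both axes. Autophagy genes run from upper left to lower right (r = -0.768), while Ctss and Psap lie at the lower left.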

How the data were processed

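Libraries were made with a SMARTER mRNA-Seq kit, per the labels' protocols. Reads were aligned with HISAT to mm10, per the submitters' processing notes. The sources used here give no counting tool, no use of strand and no rule for reads shared by related genes. As deposited, the values are estimated counts (expected counts) for each symbol, unscaled. Of values from 1 to 40, 38% were multiples of 4 (25% for an even spread), and 1 fragment was taken as 4 units. That ratio is an assumption, as most low values were not multiples of 4. Values were rounded.

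CPM and tests used R 4.3.3 and edgeR 4.0.16 (filterByExpr, TMM, quasi-likelihood F-tests, two-sided, Benjamini-Hochberg over 15181 genes, threshold 0.05), with DESeq2 1.42.0 as an alternative. The 15 libraries entered a fit with 1 coefficient for each of 4 groups (11 residual degrees of freedom), or for each of 8 combinations of group and number set (7 degrees). The library numbers from the titles were taken to pair libraries, which is an assumption. Deviations of same-numbered libraries from their group means correlated at 0.127 to 0.419 in every pair. In several pairs, however, a library of another number correlated more, so these values do not settle a pairing by number. The fits leave the pairing out, and the block is an alternative. For Trappc1, mean log2 CPM was also compared by a two-sided exact permutation test. Scripts were tested on simulated data. Exon lengths come from GENCODE M21 and promoters from RefSeq, both on GRCm38.

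All members are accounted for, and of each wider list up to 4 genes with the smallest p are named. Members, lists and the split by number were chosen with earlier results of these data known.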

Additional observations from a re-analysis of the deposited data

How the results depend on the processing

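Counts of members called kept within 1.5 times of the main count under size factors of another kind (RLE), no filter on low counts and values divided by 4. The same held with the library number as a replicate block: 19 members in the WT step, 18 in the KO step, 16 for KO CMP and 15 for KO GMP of numbers 1 and 2, 8 for each difference between number sets and 0 elsewhere. The block ended 1 call of a member, that of Gabarapl1 in GMP of numbers 1 and 2. Exceptions under other settings were few. With only the compared groups in the fit, the KO step had 10 members in place of 16, the difference between number sets in GMP 14 in place of 8, and KO against WT in GMP of numbers 3 and 4 had 1 (Psap) in place of 0. DESeq2 gave 13 for the difference in GMP. The cause was not tested. Leaving out 1 library gave 13 to 16 members in the WT step, 8 to 17 in the KO step, 12 to 15 for KO CMP and 12 to 14 for KO GMP of numbers 1 and 2, 6 to 10 and 4 to 7 for the differences between number sets in CMP and GMP, and 0 to 0 for KO against WT over all libraries, its difference between cell types and numbers 3 and 4. KO GMP 1 could not be left out of its own set. Without KO CMP 1 and 2 and KO GMP 1, KO against WT again gave 0 members in each cell type, the WT step 20 and the KO step 17. Calls of single members were lost 93 times with a library left out and 35 times under other settings. The members called in a comparison kept their sign there under every setting run. Gains of calls by other members were followed only in the counts above. The step within number sets was added after the data were seen. A call with 1 or 2 libraries a side rests on the spread shared with the other groups. The smallest library had about 15320000 fragments under the assumed 4 units per fragment.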
